A study of Mus musculus with 28 samples.

Results

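RNA of the motor cortex was compared between mice with the *Hdc* knockout allele on both chromosomes (*Hdc*-KO) and mice heterozygous for it (*Hdc* het), in 4 of the 28 libraries of the series. The libraries labelled KO came from mice 7 and 8 and those labelled het from mice 5 and 6, and 13084 of 29878 listed genes exceeded 1 CPM, the count scaled to library size, in at least 2 of these 4 libraries and were tested. All mice were 2-3 months old, male and of a line backcrossed to C57Bl/6, with no treatment named, and no other allele separates the groups in the labels. A single library of wild-type (WT) motor cortex, from mouse 2, is given beside them without a test. The mouse numbers are the digits in the library names, which no label explains. No source says whether the mice shared litters, so p-values measure only the spread between these libraries, and 2 libraries against 2 cannot give an exact permutation p below 0.333.

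*Hdc* encodes histidine decarboxylase, the enzyme that makes histamine from histidine. In the brain the neurons that make histamine lie in the posterior hypothalamus, and their axons reach the cortex, where histamine acts on H1 and H2 receptors of target cells and on H3 receptors that restrain transmitter release. The motor cortex holds layered excitatory neurons, inhibitory interneurons, glia and vessels. Its deepest layers, 6 and 6b, send axons to the thalamus and lie next to the white matter, where oligodendrocytes wrap axons in myelin. These are libraries of whole tissue, in which fewer cells of a type and less RNA per cell cannot be told apart.

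The 4 libraries held between 3732822 and 4507411 counts on genes, and the WT library held 4320195. The 2 ribosomal RNAs of the mitochondrial genome took 29.8% and 29.4% of these counts in the het libraries, 21.7% and 26.4% in the KO libraries and 28.1% in the WT library. The het libraries differed from each other by a chi-square of 1.78 per degree of freedom and the KO libraries by 4.10, so neither pair was 1 library counted again, and the KO pair was the more uneven. The labelled tissue was checked against marker lists. Summed over the 15 excitatory neuron genes, the level was between 10421 and 11761 CPM in the 4 libraries, and over the 14 genes tested of striatal spiny neurons it was between 689 and 715 CPM. *Camk2a*, a kinase of excitatory synapses, was at 4696 and 4993 CPM in het, and at 5813 and 4591 CPM in KO.

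*Hdc* itself (chr2:126593667-126619299, minus strand, GRCm38) had 20 and 21 counts in the het libraries, 45 and 29 in the KO libraries and 0 in the WT library, where 0 allows up to 3 counts. That is 4.80 and 5.39 CPM in het against 10 and 7.77 CPM in KO. Both KO libraries thus lay above both het libraries, and WT lay below all 4. The log2 fold change of KO over het was 0.81 (SE 0.315), with an unadjusted p of 0.00985 and an adjusted p of 0.923 by edgeR's likelihood ratio test. The counts are summed over the whole gene and do not show which exons the reads covered, so the level of *Hdc* neither shows nor checks the loss of enzyme, and KO and het are used below as the labels give them. In the other regions the het libraries also included mouse 4. The log2 fold change of *Hdc*, KO over het, was 0.63 in the dorsal striatum and 1.19 in the ventral striatum (adjusted p = 0.0181, edgeR). In the hypothalamus it was -0.42.

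No gene of the histamine pathway list, which includes *Hdc*, passed the threshold in motor cortex. Of 14 genes listed, 10 were tested, 5 were higher and 5 lower in KO, and their median log2 fold change was -0.01, against -0.00 over all genes tested. *Hrh3*, the inhibitory H3 receptor, was at 99.6 and 97.5 CPM in het, and at 117 and 132 CPM in KO. Its groups did not overlap, as in 34.8% of all genes tested when both directions are counted. Its log2 fold change was 0.33 with an unadjusted p of 0.0599 (edgeR). The WT library, at 117 CPM, lay among the KO values. The H1 receptor gene *Hrh1* had a log2 fold change of -0.28 and the H2 receptor gene *Hrh2* one of 0.33. *Hnmt*, whose enzyme inactivates histamine by methylation, had one of -0.22 with overlapping groups.

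Across all genes, the spread was first estimated from all 28 libraries in their 12 groups of genotype and region, with 16 residual degrees of freedom. At an adjusted p under 0.05, edgeR's likelihood ratio test then called 1 of 13084 genes, 0.00764%, and the gene was *Arc*. The quasi-likelihood alternative in edgeR called 0 genes, as did DESeq2. At an unadjusted p under 0.05 the 3 tests held 519 genes (3.97%), 488 genes (3.73%) and 259 genes (1.98%). Of the 519, 239 (1.83% of all genes) were higher and 280 (2.14%) lower in KO. Scaled by library size alone, under which the median of all genes moved to 0.14, the split was 722 higher and 91 lower.

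The same likelihood ratio test fitted to the 4 libraries alone, in which spread between regions and mice of other groups plays no part, called 48 genes (0.367%), 9 higher (0.0688%) and 39 lower (0.298%) in KO. That fit has 2 residual degrees of freedom, so its estimate of each gene's spread leans on the other genes. The quasi-likelihood test on the same 4 libraries called 35 genes (0.268%), all of them among the 48. Of the 48, 37 had an unadjusted p under 0.05 in the fit of all libraries. When 1 library was left out, fewer of the 48 were called. Without het mouse 5 the fit called 20 genes, 14 of them among the 48, without het mouse 6 it called 22 (16 among the 48), without KO mouse 7 it called 25 (21 among the 48) and without KO mouse 8 it called 156 (39 among the 48). Calls of this second fit are named as such below, and rose and fell refer to the fit named beside them.

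**Figure D1:**
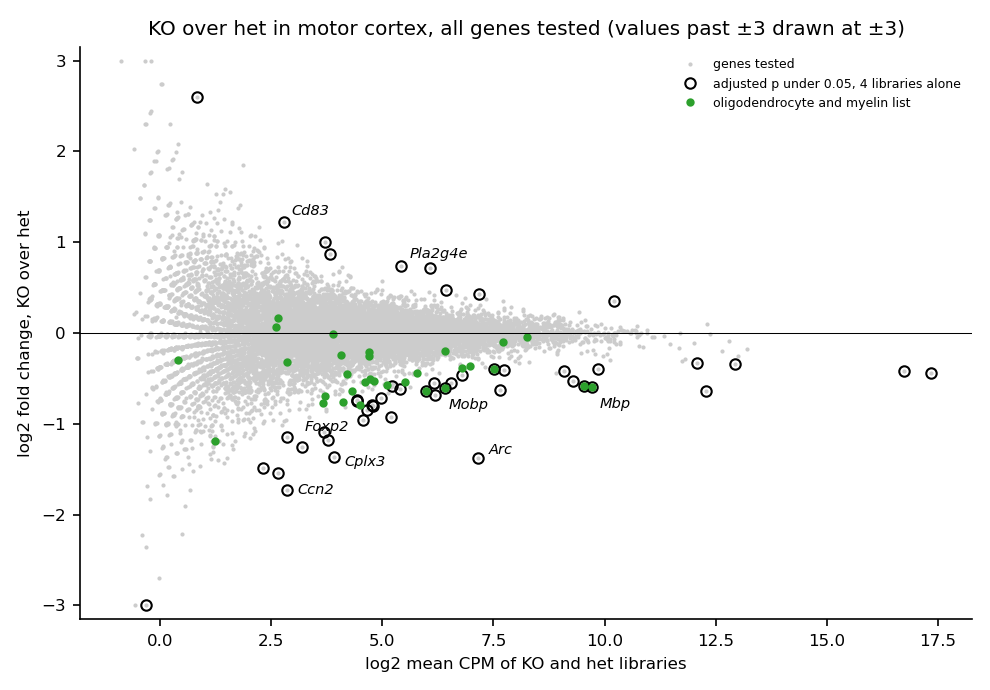
Log2 fold change of KO over het in motor cortex (vertical axis) against the log2 of the mean CPM of the het and KO means (horizontal axis), 1 grey point per gene tested, with values past 3 in either direction drawn at 3. Open circles mark the 48 genes called from the 4 libraries alone, of which 39 lie below 0, and green points mark the oligodendrocyte and myelin list, of which 29 of 31 lie below 0.

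The WT library is set beside these calls with no replicate. Of the 39 genes that fell in the 4-library fit, the WT level was above all 4 libraries in 8, within their range in 31 and below them in 0. Of the 9 that rose, WT was below all 4 libraries in 4, within their range in 4 and above them in 1. Over all 13084 genes tested, WT was above all 4 libraries in 2501 and below them in 2765. The called genes were picked for a gap between het and KO, which leaves a wide range for WT to lie in. These counts therefore cannot show which of the 2 groups departs from WT.

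*Arc* (chr15:74669083-74672570, minus strand) fell in KO. It is an immediate early gene, transcribed within minutes of strong synaptic activity, and its protein drives removal of AMPA receptors from synapses. Its level was 226 and 186 CPM in the het libraries, 70.9 and 87.1 CPM in the KO libraries and 242 CPM in WT. The groups did not overlap, and het was 2.60-fold above KO. The log2 fold change was -1.38 (SE 0.283, adjusted p = 0.0137, edgeR likelihood ratio test on all libraries). With the quasi-likelihood test the adjusted p was 0.112, with DESeq2 it was 0.841, and it lay between 0.0575 and 1.00 when each of the 4 libraries was left out in turn, so the call did not survive the loss of any of them. In the 4 libraries alone its adjusted p was 7.21e-27. The WT value is from mouse 2 only, and *Arc* varied between WT mice in the striatum. It was at 67.3 and 142 CPM in the dorsal striatum of WT mice 1 and 2. In the ventral striatum of WT mice 1, 2 and 3 it was at 21.7, 48.6 and 25.5 CPM.

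The immediate early gene list includes *Arc*. Of 24 genes listed, 23 were tested, 8 were higher and 15 lower in KO, with a median log2 fold change of -0.16, and 8 of the 23 (34.8%) had KO below het without overlap, against 17.6% of all genes tested. *Egr1*, a transcription factor gene induced by activity, was at 596 and 888 CPM in het, and at 484 and 542 CPM in KO, and it fell in the 4-library fit (log2 fold change -0.53, adjusted p = 0.00511, edgeR) but had an unadjusted p of 0.165 with all libraries. *Fos*, which encodes a subunit of the AP-1 factor, was at 12 and 13.3 CPM in het, and at 5.11 and 9.65 CPM in KO, with an unadjusted p of 0.114. *Dusp1*, a phosphatase gene that limits MAP kinase signalling, had a log2 fold change of -0.86 (unadjusted p = 0.0300, edgeR). *Nr4a1*, an orphan nuclear receptor gene, had -0.45.

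*Bdnf*, whose product is a growth factor for neurons, was at 6.72 and 7.96 CPM in het, and at 14.0 and 11.3 CPM in KO. Its groups did not overlap, with a log2 fold change of 0.79 and an unadjusted p of 0.0318 (edgeR). *Egr3* had 0.45, also with KO above het in both libraries. The list had a median of -1.09 in the dorsal striatum, with 3 of the 23 genes higher in KO, of -0.64 in the ventral striatum, with 4 higher, and of -0.43 in the hypothalamus, with 8 higher as in motor cortex. *Arc* fell in the dorsal striatum (-1.65, adjusted p = 1.73e-05) and in the ventral striatum (-1.26, adjusted p = 0.0286) by the same edgeR fit, and had 0.25 in the hypothalamus.

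**Figure D2:**
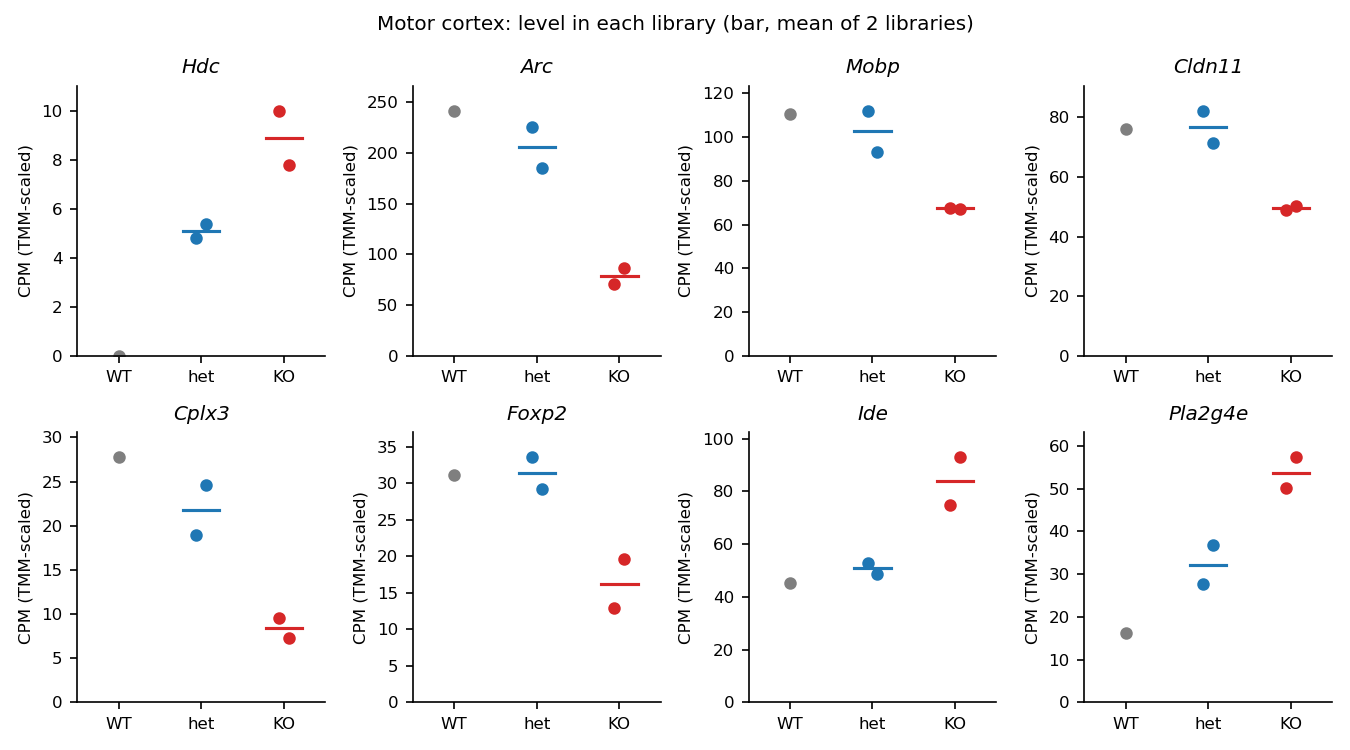
Level in CPM, scaled by TMM, of 8 genes in each motor cortex library, with WT in grey (1 library), het in blue and KO in red (2 libraries each) and a bar at the mean of the 2. All axes start at 0. KO lies above het for *Hdc*, *Ide* and *Pla2g4e* and below het for the other 5, with no overlap in any of the 8.

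Genes of oligodendrocytes and myelin were lower in KO motor cortex in most cases. Of 32 listed, 31 were tested, 29 had a negative log2 fold change, and 24 (77.4%) had both KO libraries below both het libraries, against 17.6% of all genes tested. The median log2 fold change was -0.45, between -1.18 and 0.16, against -0.00 over all genes tested. With all libraries in the fit none of the 31 passed an adjusted p of 0.05, and 17 were lower at an unadjusted p under 0.05, against 2.14% of all genes. In the 4 libraries alone 5 of them fell, against 0.298% of all genes. The summed level of the list was 3860 and 3474 CPM in het, 2527 and 2841 CPM in KO and 3763 CPM in WT, so KO lay below WT as well.

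Among the genes that fell in the 4-library fit were parts of the myelin sheath. *Mobp*, for a basic protein of compact myelin, was at 112 and 93.2 CPM in het, 67.6 and 67.3 CPM in KO and 110 CPM in WT, and its log2 fold change was -0.61 (SE 0.122, adjusted p = 0.00070). *Mbp*, for myelin basic protein, which holds the inner faces of the myelin membrane together, was at 1042 and 971 CPM in het, 639 and 696 CPM in KO and 968 CPM in WT. Its log2 fold change was -0.59 (SE 0.0906, adjusted p = 4.1e-07).

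*Cldn11*, for the claudin of the tight junctions between myelin layers, was at 82.3 and 71.3 CPM in het, 48.9 and 50.1 CPM in KO and 76.0 CPM in WT, with a log2 fold change of -0.63 (adjusted p = 0.000784). *Plekhb1*, a gene enriched in oligodendrocytes, had -0.40 (adjusted p = 0.0305). In these 4 genes the groups did not overlap and the WT library lay with the het libraries or between the groups. Their adjusted p-values are from edgeR's likelihood ratio test on the 4 libraries. With all libraries they were between 0.614 and 0.999.

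The other members named here by role did not pass in either fit, and not all of the 5 that fell in the 4-library fit are named. The myelin lipid enzymes *Ugt8a*, which makes galactosylceramide, and *Fa2h*, which hydroxylates its fatty acid, had log2 fold changes of -0.79 and -0.76. *Trf*, the iron carrier transferrin that oligodendrocytes make, had -0.77. The adhesion proteins' genes *Mag* and *Mog* had -0.44 and -0.54, and *Cnp*, a phosphodiesterase of myelin cytoplasm, had -0.38. The transcription factor genes of the lineage stood nearer 0. *Sox10* was at 16.1 and 20.3 CPM in het, and at 15.1 and 15.5 CPM in KO (-0.24), and *Olig2* was at 16.6 and 13.1 CPM in het, and at 14.5 and 15 CPM in KO (-0.01, with overlap). Of 11 tested genes of oligodendrocyte precursors, 9 were lower, with a median of -0.05.

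The promoters of 2 of these genes are shown because the SOX family, to which *Sox10* belongs, binds short motifs such as ACAAAG and ACAATG. The 250 bases before the start site are from RefSeq on GRCm38.p6, 5′ to 3′ on the strand of the gene, with every match to ACAAAG or ACAATG on either strand (CTTTGT or CATTGT as read here) in capitals. *Mobp* (chr9:120149492-120149741, plus strand) holds 6 matches, and *Cldn11* (chr3:31149670-31149919, plus strand) holds 0.
*Mobp*: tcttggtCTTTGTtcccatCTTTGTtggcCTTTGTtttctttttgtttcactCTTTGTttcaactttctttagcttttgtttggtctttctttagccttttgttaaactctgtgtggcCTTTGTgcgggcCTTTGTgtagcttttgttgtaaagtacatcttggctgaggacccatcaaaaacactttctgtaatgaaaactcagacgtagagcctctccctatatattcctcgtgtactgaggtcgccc
*Cldn11*: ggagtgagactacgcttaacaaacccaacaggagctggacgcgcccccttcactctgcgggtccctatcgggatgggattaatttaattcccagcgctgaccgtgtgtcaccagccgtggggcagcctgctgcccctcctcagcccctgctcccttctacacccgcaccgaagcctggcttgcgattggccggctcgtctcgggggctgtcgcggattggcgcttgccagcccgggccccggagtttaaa
Of the list's 31 tested genes, 21 had a promoter listed, and 11 of these (52.4%) held at least 1 match, against 28.2% of 27025 genes. A gene counted if any of its promoters held a match, and the number of promoters per gene was not balanced. The log2 fold changes of *Mobp* and *Cldn11* were -0.61 and -0.63. A match describes the letters only.

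**Figure D3:**
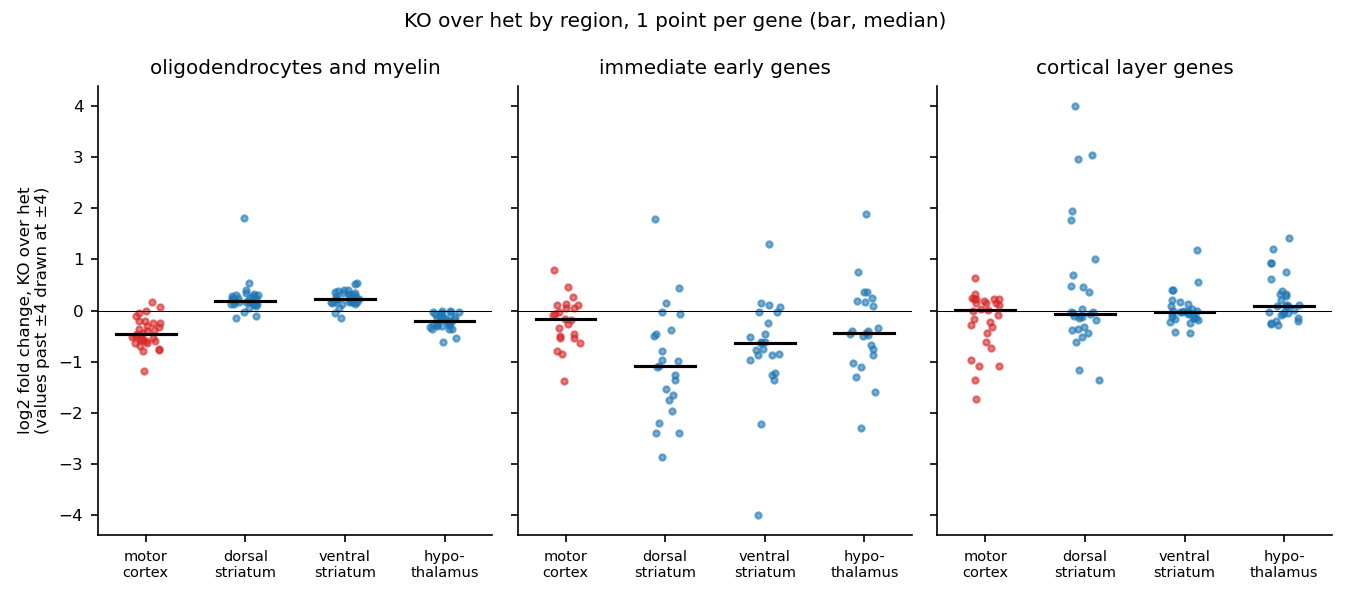
Log2 fold change of KO over het (vertical axis, values past 4 drawn at 4) for each tested gene of 3 lists in the 4 regions (horizontal axis), with a black bar at the median. The myelin list has medians of -0.45 in motor cortex, 0.19 in the dorsal striatum, 0.22 in the ventral striatum and -0.20 in the hypothalamus.

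The direction of the myelin list differed by region. Its 31 genes had a median log2 fold change of 0.19 in the dorsal striatum, with 28 higher in KO, of 0.22 in the ventral striatum, with 29 higher, and of -0.20 in the hypothalamus, with 0 higher. The difference between motor cortex and the mean of the other 3 regions was tested gene by gene. It had a median of -0.56 over the list, and 18 of the 31 genes were lower in motor cortex at an unadjusted p under 0.05, against 2.45% of all genes, and 0 were higher, against 1.83%. No gene of the list passed after adjustment.

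Several genes of the deepest cortical layers were lower in KO, and the values of upper-layer genes overlapped between the groups. Of 30 layer genes listed, 28 were tested, 14 higher and 14 lower, with a median log2 fold change of 0.00. Of these, 5 (17.9%) had KO above het without overlap and 8 (28.6%) had KO below het without overlap, against 17.2% and 17.6% of all genes. In the 4-library fit 5 of the 28 fell, against 0.298% of all genes. These were *Ccn2*, *Cplx3*, *Nr4a2*, *Foxp2* and *Syt6*, which all mark layer 6 or the layer 6b beneath it.

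*Ccn2* (chr10:24595442-24598683, plus strand), a secreted matrix protein's gene that marks layer 6b, was at 12 and 10.3 CPM in het, 4.45 and 2.14 CPM in KO and 15.4 CPM in WT. *Cplx3* (chr9:57599992-57606281, minus strand), a complexin gene of layer 6b neurons, was at 19.0 and 24.6 CPM in het, 9.56 and 7.24 CPM in KO and 27.8 CPM in WT. *Foxp2* (chr6:14901349-15441977, plus strand), a transcription factor gene of layer 6, was at 33.6 and 29.3 CPM in het, 12.9 and 19.6 CPM in KO and 31.1 CPM in WT. In each the 2 KO libraries were the lowest of the 5. Their log2 fold changes in the 4-library fit were -1.71 (SE 0.314, adjusted p = 0.000145), -1.35 (SE 0.227, adjusted p = 8.38e-06) and -0.97 (SE 0.190, adjusted p = 0.000333) in that order (edgeR).

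*Nr4a2*, a nuclear receptor gene of layer 6b and the claustrum, was at 14.2 and 21 CPM in het, and at 8.23 and 8.31 CPM in KO. *Syt6*, a synaptotagmin gene of layer 6, was at 27.1 and 26.7 CPM in het, and at 12.9 and 19.6 CPM in KO. In both the groups did not overlap, and the adjusted p was 0.00511 and 0.0359 in the 4-library fit (edgeR). With all libraries the 5 genes had adjusted p-values between 0.587 and 0.999. *Tle4*, a corepressor gene of layer 6 neurons, had a log2 fold change of -0.44 (unadjusted p = 0.00969 with all libraries, edgeR), and *Moxd1* and *Sulf1* had -1.08 and -0.63. *Hs3st4*, a heparan sulfate enzyme gene outside the list that also fell in the 4-library fit, was at 47.0 and 42.6 CPM in het, and at 26.5 and 33.5 CPM in KO.

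The upper-layer genes *Cux2*, *Rasgrf2* and *Lamp5* had log2 fold changes of 0.31, 0.23 and 0.19, each with overlapping groups. *Fezf2*, which specifies subcortical projection neurons of layer 5, had 0.22. The 2 KO libraries were not alike in them. *Lamp5*, for example, was at 264 and 314 CPM in het, and at 395 and 265 CPM in KO. The summed level of the whole layer list was 1722 and 1982 CPM in het, and 1981 and 1859 CPM in KO. The dissection of deep layers and adjoining white matter was not measured separately, and the part of either in the lower layer 6 and myelin values was not tested.

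**Figure D4:**
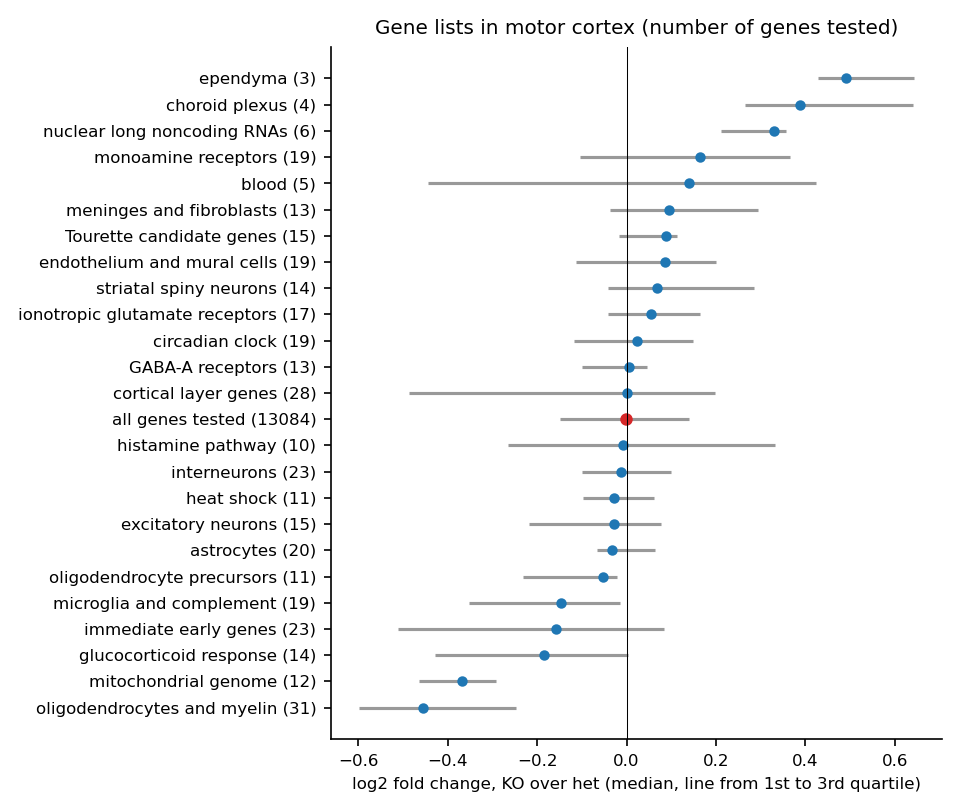
Median log2 fold change of KO over het (horizontal axis) for each gene list (vertical axis, with the number of genes tested), with a line from the first to the third quartile and all genes tested in red. The oligodendrocyte and myelin list has the lowest median, -0.45, followed by the mitochondrial genome at -0.37, and lists of 10 or more genes lie at or below 0.16.

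Transcripts of the mitochondrial genome were lower in KO. All 12 tested had a negative log2 fold change, with a median of -0.37, and 11 (91.7%) had KO below het without overlap, against 17.6% of all genes. Of these 12, 0 were higher in KO in the dorsal striatum (median -0.27), 8 in the ventral striatum (0.03) and 3 in the hypothalamus (-0.04). In the 4-library fit 5 of them fell, against 0.298% of all genes, among them the ribosomal RNAs *mt-Rnr1* (-0.44, adjusted p = 0.00749) and *mt-Rnr2* (-0.42, adjusted p = 0.00883, edgeR). The authors removed reads that matched a ribosomal reference, and the share of counts on these 2 genes is the share given above. All 6 nuclear long noncoding RNAs tested were higher in KO than in het, with a median of 0.33. The WT library lay above all 4 libraries in 5 of the 6, against 2501 of all 13084 genes tested. In the other regions 6 of these RNAs were higher in KO in the dorsal striatum (median 0.38). There were 5 in the ventral striatum (0.25) and 5 in the hypothalamus (0.29). *Snhg11*, at 1093 and 998 CPM in het, and at 1243 and 1424 CPM in KO, rose in the 4-library fit (0.35, adjusted p = 0.0447, edgeR). *Malat1*, retained in the nucleus, was at 1479 and 1186 CPM in het, and at 1362 and 1369 CPM in KO, with overlap. How far the balance of mitochondrial and nuclear RNA moves with RNA handling was not tested.

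Genes of other cells in the tissue stood nearer 0. Of 19 microglia and complement genes 15 were lower, with a median of -0.15 and 0 called in either fit. *C1qc*, a chain of complement C1q, was at 14.2 and 11.8 CPM in het, and at 10.2 and 5.90 CPM in KO (log2 fold change -0.66, unadjusted p = 0.00535, edgeR). The microglial receptors' genes *Csf1r* and *Cx3cr1* had -0.21 and -0.16. The medians were -0.03 for 20 astrocyte genes, -0.01 for 23 interneuron genes, -0.03 for 15 excitatory neuron genes, 0.07 for 14 genes of striatal spiny neurons and 0.09 for 19 genes of endothelium and mural cells. Of these 5 lists 1 gene fell in the 4-library fit, *Nptx1*, a secreted synaptic pentraxin's gene of the excitatory list (-0.41). The astrocyte list ran from -0.82 (*Gfap*) to 0.13. Library size alone turned the sign of the astrocyte, interneuron and excitatory medians to 0.11, 0.12 and 0.11. Ionotropic glutamate receptors had 0.05, GABA-A receptors 0.01, the circadian clock 0.02, heat shock genes -0.03, glucocorticoid response genes -0.18, monoamine receptors 0.16 and Tourette candidate genes 0.09, with 0 genes of these 7 lists called in either fit. *Adra2a*, the alpha-2A adrenergic receptor gene, was at 7.92 and 10.3 CPM in het, and at 6.0 and 2.68 CPM in KO (unadjusted p = 0.00160, edgeR). *Dpp6*, a potassium channel subunit gene of the Tourette list, had 0.22.

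Genes of neighbouring tissue varied within the groups. *Ptgds*, abundant in meninges, was at 155 and 69.3 CPM in het, and at 210 and 67.5 CPM in KO. *Ttr*, the transthyretin gene of the choroid plexus, was at 10.8 and 7.19 CPM in het, and at 0.222 and 24.7 CPM in KO. Het mouse 5 and KO mouse 7 thus held more *Ptgds* than the other 2, and the groups overlapped for both genes. The median log2 fold change was 0.09 over 13 genes of meninges and fibroblasts, 0.39 over 4 of choroid plexus, 0.49 over 3 of ependyma and 0.14 over 5 of blood.

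Among genes with higher levels in KO, *Cd83*, a surface protein gene of activated immune cells that microglia also express, was at 3.84 and 4.36 CPM in het, 9.12 and 10.2 CPM in KO and 3.32 CPM in WT (log2 fold change 1.23, adjusted p = 0.0221 in the 4 libraries, edgeR). *Lyz2*, the lysozyme gene of myeloid cells, was at 0.960 and 1.80 CPM in het, and at 4.22 and 3.75 CPM in KO, and passed in neither fit.

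*Pla2g4e* (chr2:120166412-120245335, minus strand), a phospholipase A2 gene, was at 27.6 and 36.7 CPM in het, 50.0 and 57.4 CPM in KO and 16.1 CPM in WT. The levels lay in the order WT, het, KO with no overlap. It rose in the 4-library fit (0.74, SE 0.151, adjusted p = 0.000894), and in the fit of all libraries it rose in the dorsal striatum (0.92, adjusted p = 0.00307), in the ventral striatum (1.02, adjusted p = 0.000649) and in the hypothalamus (0.82, adjusted p = 0.00385) and had an adjusted p of 0.213 in motor cortex (edgeR). *Ide* (chr19:37268743-37337852, minus strand), for the insulin-degrading enzyme, was at 53.0 and 48.8 CPM in het, 74.7 and 93.0 CPM in KO and 45.1 CPM in WT. It rose in the 4-library fit (0.71, adjusted p = 0.000147, edgeR), and its log2 fold change was 0.95, 0.83 and 0.98 in the dorsal striatum, ventral striatum and hypothalamus.

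Other genes that rose in the 4-library fit were *Snrnp70*, for a protein of the U1 spliceosome particle, *Nectin1*, an adhesion molecule's gene, *Rpap1*, whose protein binds RNA polymerase II, and *Pkd1l3*, a channel gene at under 4 CPM in all libraries. *Snrnp70* was at 74.6 and 69.0 CPM in het, and at 104 and 95.7 CPM in KO (0.48), and its WT level of 103 CPM lay with KO. Of the 15 higher genes with the smallest p in the fit of all libraries, *Slc4a3*, *Ninl*, *Prpf40b*, *Leng1*, *Zbtb8os* and *Zfc3h1* passed in neither fit, with log2 fold changes between 0.42 and 1.41. *Ak8* had 1 count in het and 13 in KO, a ratio of 12.7 with a 95% counting interval from 1.91 to 541. *Themis2* had 0 counts in het and 9 in KO, at least 1.47-fold higher when each het library is set to 3 counts. Neither passed in either fit.

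Among genes with lower levels in KO, *Tpbg*, for the trophoblast glycoprotein, a cell surface inhibitor of Wnt signalling, was at 18.7 and 19.2 CPM in het, 8.0 and 8.84 CPM in KO and 19.5 CPM in WT. The 2 values of each group were close, and *Tpbg* fell in the 4-library fit (-1.17, SE 0.225, adjusted p = 0.000235, edgeR). *Spsb1*, an adaptor gene of a ubiquitin ligase, was at 56.9 and 39.5 CPM in het, 22 and 29.2 CPM in KO and 29.9 CPM in WT, so WT lay next to KO. *Sema5a*, an axon guidance gene also found in oligodendrocytes, was at 102 and 78.8 CPM in het, and at 54.9 and 57.6 CPM in KO. Both fell in the 4-library fit, with adjusted p-values of 0.000147 and 0.000235 (edgeR).

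Further genes that fell in the 4-library fit included *Lpar1*, a lysophosphatidic acid receptor gene of oligodendrocytes, at 39.1 and 31.3 CPM in het, and at 20.9 and 19.6 CPM in KO. The secreted matrix protein's gene *Ccn1* was at 7.92 and 10.8 CPM in het, and at 2.45 and 4.02 CPM in KO. *Apod*, *Arrdc3*, *Klf10*, *Myh11*, *Nptx1*, *Ogfrl1*, *Rassf2*, *Syt10* and *Vxn* fell too, with log2 fold changes between -1.26 and -0.41 in the fit of all libraries. *Noxred1* had 13 counts in het and 0 in KO, at least 2.2-fold lower when each KO library is set to 3 counts, and 0 counts in WT. *Gm10800*, *Gm10801*, *Gm10717* and *Gm10722* are predicted genes that share repeated sequence, and their 4-library calls are uncertain because reads may be split among them. The small RNA gene *Gm22710* and *mt-Tp*, a mitochondrial transfer RNA gene, also fell in that fit. *Ddit4*, a stress-induced inhibitor of mTOR, *Rbbp9*, *Dtd1*, *Ly6g6e*, *Zfp120* and *Cct4* were among the 15 lower genes with the smallest p and passed in neither fit.

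Genes near *Hdc* were examined because a knockout allele travels with its flanking chromosome. Of 186 tested genes within 10 Mb of *Hdc*, 16 (8.60%) had an unadjusted p under 0.05, 10 higher and 6 lower in KO. The share was 7.25% of 193 genes between 10 and 30 Mb away, 4.15% of 675 genes farther along the chromosome and 3.83% of 12030 genes elsewhere. After adjustment with all libraries 0 genes of the chromosome were called, and in the 4-library fit 3 of the 186 within 10 Mb were, *Pla2g4e* and *Rpap1* higher and *Rassf2* lower in KO, beside 2 of the next 193, 2 of the 675 farther along and 41 of the 12030 elsewhere (0.367% over all genes). *Rpap1* was at 8.64 and 11.5 CPM in het, 20.7 and 16.1 CPM in KO and 8.31 CPM in WT. Which parent strain the flanking sequence came from was not analysed here.

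**Figure D5:**
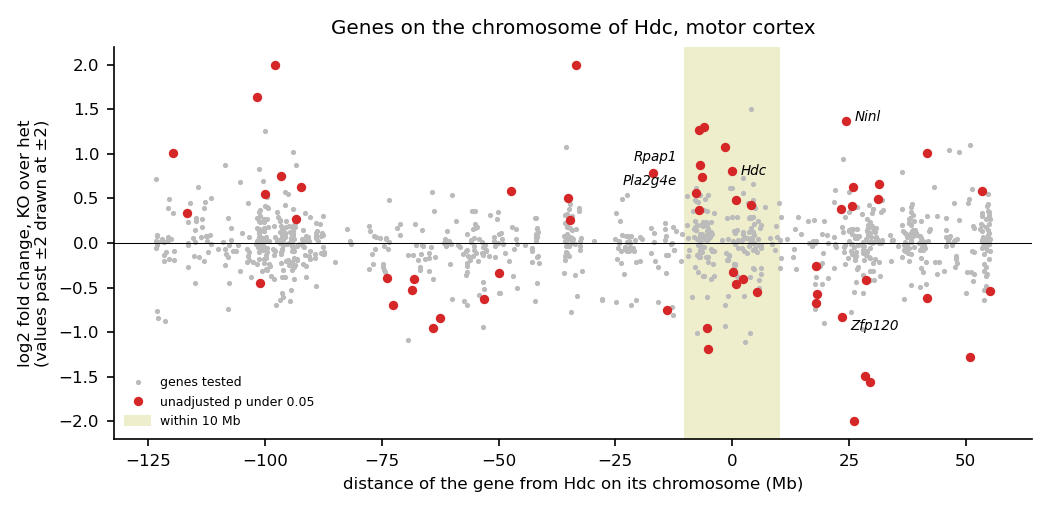
Log2 fold change of KO over het in motor cortex (vertical axis, values past 2 drawn at 2) against distance from *Hdc* in Mb (horizontal axis), 1 point per tested gene of the same chromosome. Red points have an unadjusted p under 0.05 and make up 8.60% of the 186 genes in the shaded 10 Mb on either side and 4.15% of the 675 genes beyond 30 Mb.

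Whether the difference in motor cortex departed from that in the other 3 regions was tested in the fit of all libraries. Of 13084 genes 0 passed an adjusted p of 0.05, and 559 (4.27%) had an unadjusted p under 0.05 with the likelihood ratio test and 520 (3.97%) with the quasi-likelihood test of edgeR. *Spsb1* came first, with a difference of -1.19 (adjusted p = 0.0981), followed by *Ighg2c* (an immunoglobulin gene with close copies, so uncertain), *Zbtb8os*, *Cplx3* and *Col5a1* with adjusted p-values between 0.129 and 0.276 (edgeR). *Zbtb8os* was at 3.60 and 4.88 CPM in het, and at 8.67 and 8.04 CPM in KO motor cortex. *Cplx3* differed by -2.91, since it had 3.05 in the dorsal striatum, 1.19 in the ventral striatum and 0.39 in the hypothalamus. Beside these values, the 15 excitatory neuron genes had a median KO over het of 1.47 in the dorsal striatum, -0.21 in the ventral striatum and 1.80 in the hypothalamus, against -0.03 in motor cortex, and the part of that in the test of the difference was not tested.

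The fit of all libraries, on the same 13084 genes and with the same threshold by which it called 1 gene in motor cortex, called 62 genes in the dorsal striatum (0.474%), 6 in the ventral striatum (0.0459%) and 31 in the hypothalamus (0.237%). The 48 calls of the 4 motor cortex libraries come from another fit with its own estimate of the spread, so the shares below set unlike lists side by side. Of the 48, 8 (16.7%) were also among those of the dorsal striatum (12.9% of them), 2 (4.17%) among those of the ventral striatum (33.3%) and 2 (4.17%) among those of the hypothalamus (6.45%). *Arc* was shared with both striatal regions and *Pla2g4e* with all 3. *Ide* was shared with the dorsal striatum and the hypothalamus. *Ccn2*, *Cplx3*, *Nr4a2*, *Nptx1* and *Vxn*, also shared with the dorsal striatum, were higher in KO there and lower in KO in motor cortex.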

How the data were processed

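RNA from each region was sequenced as single-end reads from a kit that does not mark strand, so reads of a gene and its antisense partner cannot be told apart. The authors trimmed reads with Trimmomatic 0.32, discarded ribosomal reads with Bowtie2 2.2.3, aligned the rest to GRCm38 with STAR 2.3.1z8 and counted unique reads on exons with HTSeq 0.6.1p1 (versions per the submitters' processing notes), and deposited raw counts per gene. Rows of unassigned reads were left out of library sizes. GENCODE M21 named 28842 of 29878 genes.

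Counts of all 28 libraries were scaled by TMM and fitted with edgeR 4.0.16 (glmFit, glmLRT, R 4.3.3) with 1 mean per genotype and region. The fit to the 4 libraries alone, the quasi-likelihood test and DESeq2 1.42.0 were alternatives, and p-values were adjusted by Benjamini-Hochberg over all genes tested. CPM values are scaled by TMM, and the 1 CPM minimum was applied before scaling. SE is the size of the fold change divided by the root of the likelihood ratio statistic. The scripts were tested on simulated counts. An interval for a ratio of counts is exact at the 95% level and covers counting error only.

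The members, the 24 gene lists and the comparisons were chosen with earlier results of these data known. Genes were named by rule: *Hdc*, the 15 higher and 15 lower genes with the smallest p, called genes near *Hdc*, called and most abundant list members, and the 5 with the smallest p of the regional difference. Genes called from the 4 libraries alone, and list members named for their role, were chosen after their values were seen. Some genes that these choices name are not reported here.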

Additional observations from a re-analysis of the deposited data

Results flagged for a closer look

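The oligodendrocyte and myelin list moved in opposite directions in 2 regions. Its mean log2 CPM differed between KO and het by -0.424 in motor cortex, where the KO libraries lay between 4.82 and 4.96 and the het libraries between 5.25 and 5.37. In the ventral striatum the difference was 0.228, with KO between 6.06 and 6.21 and het between 5.80 and 6.05. Every KO library lay below every het library in motor cortex and above in the ventral striatum, and the difference between regions in this mean was not tested.

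The monoamine receptor list was flagged in the same way, with 0.0644 in motor cortex and -0.134 in the ventral striatum, and the difference was not tested.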

How the results depend on the processing

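The count of genes called was 1 with all libraries and also 1 under relative log expression scaling, without the minimum, and with minimums of 1 CPM in 2 of 28 libraries or 5 CPM in 2 of the 4. It was 0 with the quasi-likelihood test, DESeq2 or library size alone, 48 with the 4 libraries alone, 35 with their quasi-likelihood test and 49 with the 5 motor cortex libraries. Leaving out 1 library gave between 0 and 7, the 7 without KO mouse 8 (*2700081O15Rik*, *Ano4*, *Arrdc3*, *C1qbp*, *Slc25a4*, *Ugt8a* and *Uqcrfs1*). The 4-library count of 48 became 20 without het mouse 5, 22 without het mouse 6, 25 without KO mouse 7 and 156 without KO mouse 8, fits chosen after seeing the data in which the lone library of a group is assumed to vary like the other group. Library size alone moved the median of all genes to 0.14, where the myelin list had -0.32, the mitochondrial genome -0.23 the immediate early genes -0.03 and microglia -0.01, and it turned the medians of oligodendrocyte precursors (0.09), the histamine pathway (0.13) and heat shock genes (0.11) above 0. The compared groups share no replicate numbers. Across regions, libraries of the same number correlated between -0.0239 and 0.0421 in their deviations from group means. In a group of 2 libraries these deviations mirror each other, so the values cannot show whether equal numbers are the same mouse. For the regional difference, mouse number as a replicate block called 1 gene (*Ccn2*) in place of 0. Leaving out 1 library gave between 0 and 5 calls there, the 5 without KO mouse 8 and 1 without het mouse 6. Log2 fold changes turned sign when 1 library was left out for *Camk2a* (-0.0775 to 0.263), *Lamp5* (-0.124 to 0.451), *Rasgrf2* (-0.129 to 0.511), *Ptgds* (-0.732 to 1.00), *Ttr* (-5.17 to 1.45), *Malat1* (-0.115 to 0.203), *Col5a1* (-0.857 to 0.0241), *Olig2* (-0.170 to 0.169) and *Cux2* (-0.0026 to 0.719), each with its range, and library size alone gave *Olig2* 0.127. The causes were not tested. *Hdc* lay between 0.61 and 0.97 in all settings. At these depths and 2 libraries a group, small differences of low genes were not detectable.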
